A study of Rattus norvegicus with 12 samples.

Results

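Immediate early genes are the genes that a stimulated cell transcribes first, and the 10 looked for here were Fos, Junb, Jun, Egr1, Egr2, Nr4a1, Arc, Ier2, Dusp1 and Btg2. A probe set was taken as a member where the platform annotation gave it 1 of these symbols and no other, which found 14 probe sets of 9 genes among 14217 genes with such a probe set, and none for Btg2. The brightest probe set of each gene over the 12 arrays was its main one, and every other probe set is also described. The rats were male Wistar offspring killed at 3 months of age after eating standard chow from weaning, and the sources used here give neither the hour of death nor the handling before it. Recuperated animals (n = 6) were born to dams fed a diet with 8% protein in pregnancy and were nursed from postnatal day 3 by control dams in small, all-male litters. Control animals (n = 6) were born to dams fed the control diet, which held more protein. From the same postnatal day 3 they were suckled by control dams in culled litters of both sexes. Diet in utero, litter size and sex of the littermates thus differ together between the groups and cannot be told apart. The arcuate nucleus of the hypothalamus (ARC) was cut by laser from stained frozen sections, its RNA was amplified and hybridised to an Affymetrix rat array, with 1 animal per array, and the study counts litters as n.

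Immediate early genes are switched on within minutes of a rise in calcium or a growth factor signal, by transcription factors that are already in the cell, such as SRF with its Elk partners at CArG boxes and CREB at cAMP response elements. Their mRNAs are short-lived, so their levels follow the recent history of a cell, and in the hypothalamus Fos and Egr1 are used as marks of neurons that were recently active. Several of the products are transcription factors themselves, whereas others shut the signal off again.

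Signals are deposited log2 values made with RMA, minus the median of their array, so that 0 is the middle probe set of an array and 1 unit is a doubling. Signals of different probe sets depend on their probes and were not set against each other. A tissue sample cannot tell fewer cells of a type from less RNA per cell. ARC neuron markers were present on the arrays, with 10 of 12 listed genes measured and 7 of these above the array median. Recuperated array 4 stood apart from the others: its mean over these ARC markers was 0.58, against 2.44 to 2.70 on the other recuperated arrays and 2.66 to 2.85 on control arrays. Its mean over markers of the neighbouring ventromedial nucleus (VMN) was 3.52, against 0.39 to 1.43 on the other recuperated arrays and 0.45 to 1.74 on control arrays. On that array Npy, a defining ARC neuropeptide, was at 0.91, against 4.32 or more on every other array, and Nr5a1, which defines the VMN, was at 2.60, against -0.28 or less elsewhere. Of the 10 measured ARC genes 8 were lowest on that array, and of the 5 measured VMN genes 5 were highest. The main probe set of Pomc, another ARC neuropeptide gene, was at -0.75 there and -0.74 on recuperated array 6, and was below the array median on all 12 arrays. By RT-PCR, another measure, the study reports strong expression of Npy, Pomc, Cartpt and Agrp in its captures. It also reports that Nr5a1 was not detected in them, and shows the data for neither. The ARC markers were also lower in recuperated animals as a group, with 10 of 10 genes below 0 in their log2 difference, against 56.6% of all probe sets. That count includes array 4, and it was not taken without it. The list mean was 2.22 ± 0.81 on recuperated and 2.73 ± 0.08 on control arrays (SD, n = 6 each, exact permutation p = 0.00866). Without recuperated array 4 the list mean was 2.55 ± 0.11 on the 5 recuperated arrays and 2.73 ± 0.08 on the 6 control arrays (SD, exact permutation p = 0.0108). The part of this difference in the comparisons of the members was not tested. Results that rest on this array are therefore given with and without it.

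No immediate early gene differed between recuperated and control animals once P-values were adjusted over all probe sets. The smallest adjusted p of a member was 0.999 (limma, Benjamini-Hochberg over 31042 probe sets), and 0.0% of all probe sets passed an adjusted p of 0.05. By unadjusted P under 0.05, 1 of the 14 member probe sets passed, that of Junb, beside 3.45% of all probe sets. None reached the study's threshold of 1.3-fold with P under 0.05, which 2.47% of all probe sets did. The main probe sets had a median log2 difference, recuperated minus control, of -0.09, with 5 below 0 and 4 above it. Over all probe sets tested the median was -0.03, and 56.6% lay below 0. The members differed from each other most in how far animals of the same group were spread.

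**Figure D1:**
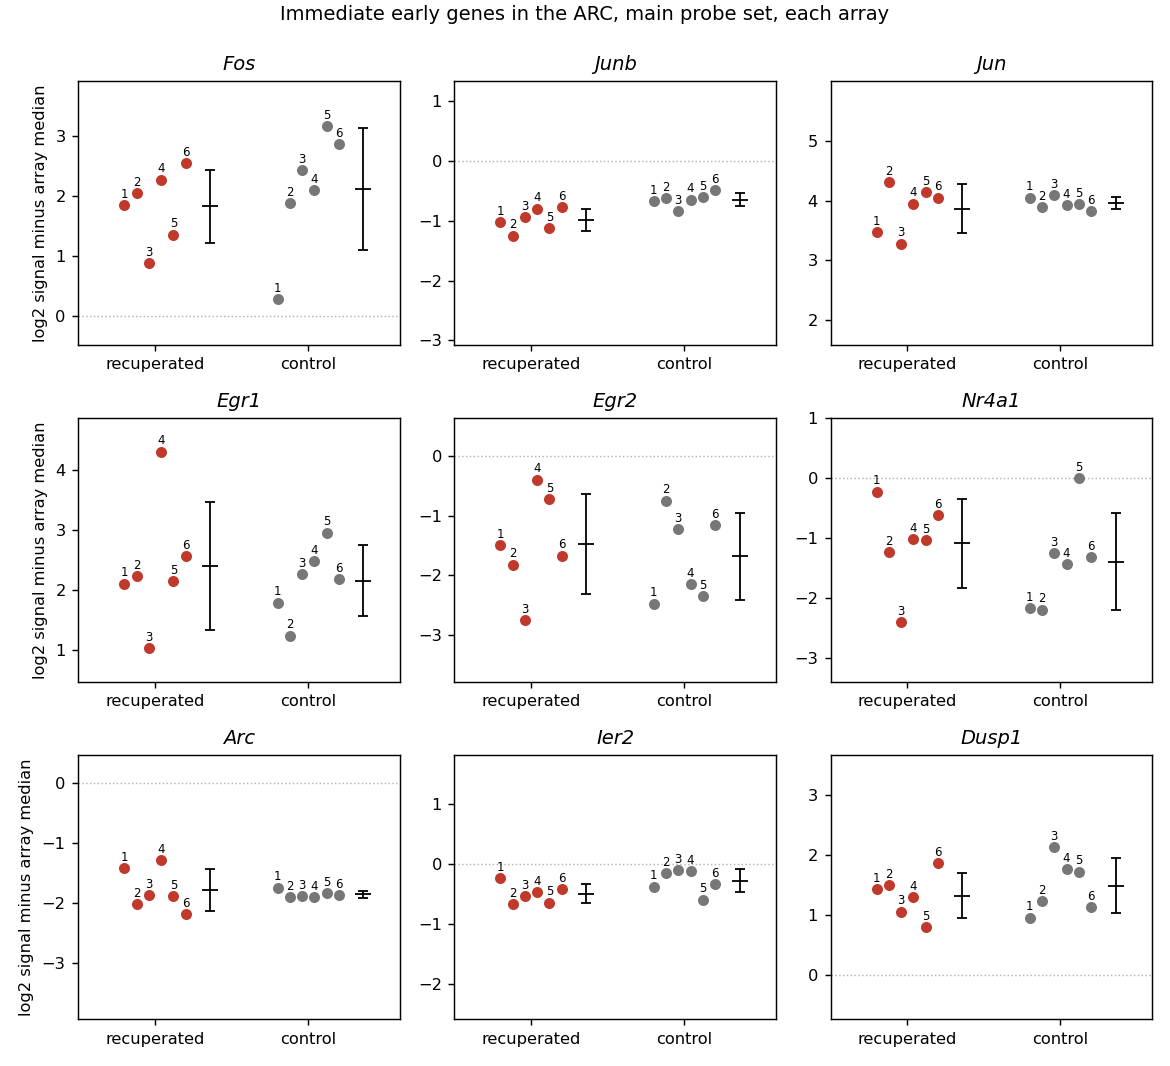
Log2 signal minus array median (y axis) of the main probe set of each of the 9 measured genes on the 6 recuperated arrays (red, left) and the 6 control arrays (grey, right), numbered by animal, with the mean and SD of each group as a bar beside the points and all panels spanning the same log2 range. Fos, Egr1, Egr2 and Nr4a1 are spread over more than 2 log2 units, whereas Junb, Arc and Ier2 stay within 1, and in every panel the groups overlap.

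Fos encodes a partner of the Jun proteins in the transcription factor AP-1. Its main probe set (1375043_at) had a lowest signal of 0.88, a median of 1.94 and a highest of 2.54 on recuperated arrays, against 0.27, 2.26 and 3.16 on control arrays. The range over the 12 arrays was 2.89 log2 units, or 7.41-fold, and both ends of it were control animals, number 1 at the bottom and number 5 at the top. All 12 arrays were above the array median. The difference was -0.29 (SE 0.42, 95% interval -1.19 to 0.60, exact permutation p = 0.563), so the interval holds both no difference and a lower level of more than 2-fold in recuperated animals. The difference depended on single animals: it was -0.66 without control animal 1, with an unadjusted limma P of 0.0498, -0.08 without control animal 5 and -0.10 without recuperated animal 3. With arrays weighted by their quality it was -0.01. A dimmer Fos probe set (1371283_at) was below the array median on all 12 arrays, lay between -2.89 and -1.66 on recuperated arrays and between -2.57 and -2.09 on control arrays, and did not follow the main one (r = -0.34, rho = -0.52, given as a description).

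Jun, the partner of Fos in AP-1, varied less. Its main probe set (1389528_s_at) had a lowest signal of 3.28, a median of 4.00 and a highest of 4.31 on recuperated arrays, against 3.82, 3.94 and 4.09 on control arrays. On this probe set the recuperated animals lay on both sides of a narrow control range, with an SD of 0.40 against 0.10 in controls (n = 6 each). Their mean difference was -0.09 (SE 0.17, exact permutation p = 0.621). A second probe set, annotated from the same sequence (1374404_at), followed the main one closely (r = 0.85, rho = 0.82) with a difference of -0.06, and the third (1369788_s_at) less so (r = 0.24, rho = 0.18) with a difference of 0.10. The SD of the second was 0.52 in recuperated and 0.28 in control animals. That of the third was 0.22 and 0.36, so the wider recuperated spread was not shared by every Jun probe set.

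Junb encodes a Jun family member that in many settings restrains Jun, and it held the only group difference among the members with an unadjusted P under 0.05. Its probe set (1387788_at) had a lowest signal of -1.25, a median of -0.98 and a highest of -0.77 on recuperated arrays, against -0.84, -0.64 and -0.49 on control arrays. Of the 6 recuperated animals, 4 were below every control, and the groups overlapped at their edges. The difference was -0.33 (SE 0.12, 95% interval -0.59 to -0.08), a 0.794-fold level, with an unadjusted limma P of 0.0134, an adjusted p of 0.999 and an exact permutation p of 0.00649, where 0.00216 is the smallest that 6 against 6 arrays can give. This fold is inside the study's 1.3-fold threshold, and 2.0% of all probe sets were lower in recuperated animals at an unadjusted P under 0.05. The unadjusted P stayed under 0.05 whichever array was left out, with differences between -0.38 and -0.28. All 12 values lay below the array median, so Junb was removed where only brighter probe sets were kept.

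Egr1 and Egr2 encode zinc finger transcription factors of 1 family. Egr1 (1368321_at) had a lowest signal of 1.03, a median of 2.19 and a highest of 4.31 on recuperated arrays, against 1.24, 2.23 and 2.96 on control arrays. Both the lowest and the highest of the 12 values were recuperated animals, number 3 and number 4, and they were 3.28 log2 units or 9.71-fold apart. The difference was 0.24 (SE 0.43, 95% interval -0.68 to 1.17, exact permutation p = 0.669), and it turned to -0.14 without array 4, the one with VMN markers.

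Egr2 (1387306_a_at), which is also known for driving myelination in Schwann cells, had a lowest signal of -2.75, a median of -1.58 and a highest of -0.40 on recuperated arrays, against -2.47, -1.68 and -0.75 on control arrays. Its extremes were the same 2 recuperated animals as those of Egr1. The difference was 0.21 (SE 0.39, exact permutation p = 0.645), and -0.01 without array 4. A second Egr2 probe set (1398266_a_at) did not follow the main one (r = -0.03, rho = 0.02) and differed by -0.14. Both were below the array median on all arrays.

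Nr4a1 encodes an orphan nuclear receptor that responds to calcium and cAMP. Its probe set (1386935_at) had a lowest signal of -2.40, a median of -1.03 and a highest of -0.22 on recuperated arrays, against -2.19, -1.37 and 0.01 on control arrays. Only 1 of 12 values, that of control animal 5, was above the array median, and the same animal was highest for Fos. The difference was 0.30 (SE 0.39, 95% interval -0.52 to 1.13, exact permutation p = 0.506), and it ran between 0.13 without recuperated animal 1 and 0.58 without control animal 5.

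Arc, whose product acts at synapses, where it promotes the removal of glutamate receptors, is here the gene and not the nucleus (ARC). Its probe set (1387068_at) had a lowest signal of -2.18, a median of -1.88 and a highest of -1.28 on recuperated arrays, against -1.90, -1.87 and -1.74 on control arrays. The recuperated animals (SD 0.35) lay on both sides of the control animals, which were nearly alike (SD 0.06, n = 6 each). The mean difference was 0.08 (SE 0.15, exact permutation p = 0.576), and -0.02 without array 4, which held the highest value. All 12 values were below the array median.

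Ier2 encodes a small nuclear protein. Its signal (1372389_at) was lowest at -0.66, with a median of -0.50 and a highest of -0.23 on recuperated arrays, against -0.59, -0.24 and -0.10 on control arrays. The recuperated animals leaned lower within overlapping groups, with a difference of -0.22 (SE 0.13, 95% interval -0.49 to 0.05, limma P = 0.106, exact permutation p = 0.0671). Without control animal 5 it was -0.28, with an unadjusted limma P of 0.0399.

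Dusp1 encodes a phosphatase that switches off the MAP kinases which induce these genes. Its main probe set (1368146_at) had a lowest signal of 0.80, a median of 1.37 and a highest of 1.87 on recuperated arrays, against 0.96, 1.49 and 2.14 on control arrays. All 12 were above the array median and the groups overlapped, with a difference of -0.17 (SE 0.22, exact permutation p = 0.502), which ran between -0.28 without recuperated animal 6 and -0.04 without control animal 3. The dimmer probe set (1368147_at) gave a difference of -0.18 but ran against the main one from array to array (r = -0.57, rho = -0.59).

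**Figure D2:**
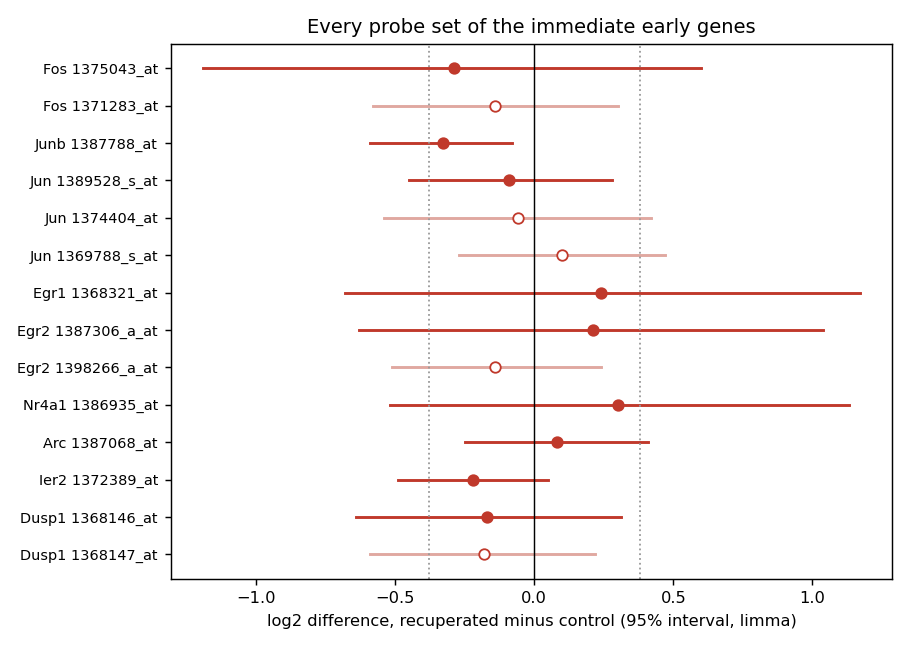
Log2 difference, recuperated minus control (x axis), with its 95% interval from limma, for all 14 member probe sets (rows; filled points are main probe sets, open points the others, dotted lines a 1.3-fold change either way). The interval of Junb is the only one that leaves out 0, and those of Fos, Egr1, Egr2 and Nr4a1 are the widest.

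The spread between animals divided the members. Taken over both groups after removal of the group means, the SD between arrays was 0.86 for Egr1, 0.84 for Fos, 0.78 for Egr2 and 0.77 for Nr4a1, against a median of 0.29 over the main probe sets of all genes. Egr1 was thereby more variable than 99.1% of genes, Fos than 98.9%, Egr2 than 98.4% and Nr4a1 than 98.3%. Among genes within 1 log2 unit of the same mean signal the shares were 99.3% for Egr1, 99.2% for Fos, 96.7% for Egr2 and 96.2% for Nr4a1. The high spread of Egr2 and Fos was that of their main probe sets: the second Egr2 probe set had an SD of 0.31, above 54.4% of genes, and the second Fos probe set of 0.38, above 71.5%. Dusp1 had an SD of 0.41 (78.1% of genes below it) and Jun of 0.29 (50.7%). The other members were steadier than most genes, with Arc at 0.25 (36.6%), Ier2 at 0.18 (12.9%) and Junb at 0.15 (7.4%). Junb, with the only difference at an unadjusted P under 0.05, was thus the member with the smallest spread. Without recuperated array 4 the SD of Egr1 was 0.59 (95.2%), of Fos 0.87 (99.5%), of Egr2 0.72 (98.4%) and of Nr4a1 0.81 (99.2%). These ranks are descriptions and were not tested.

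**Figure D3:**
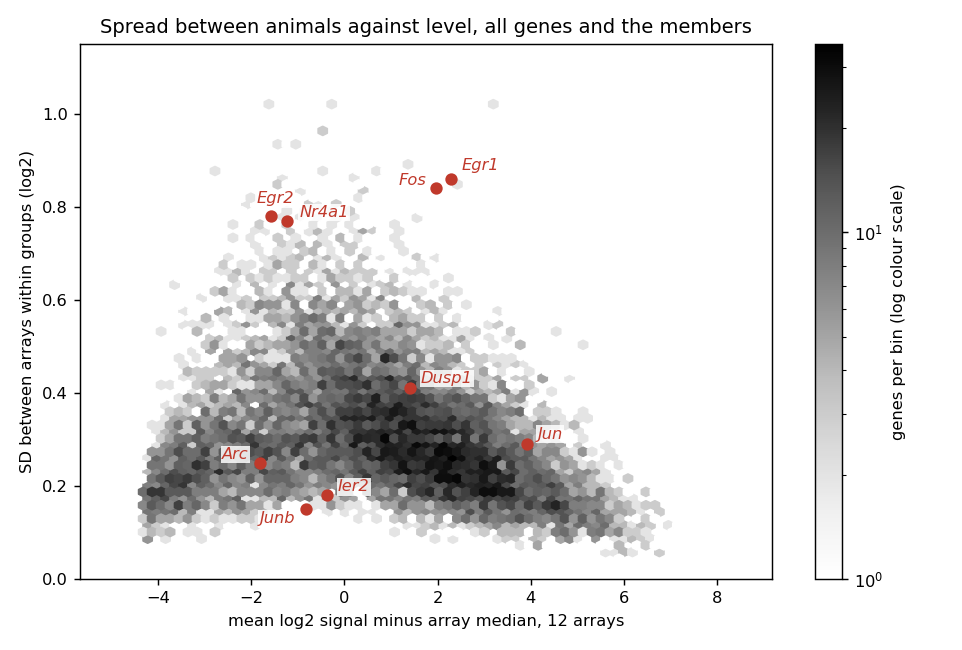
SD between arrays within groups (y axis, log2) against the mean log2 signal minus array median over 12 arrays (x axis) for the main probe sets of 14217 genes (grey bins, darker for more genes on a log colour scale) and the 9 members (red). Egr1, Fos, Egr2 and Nr4a1 lie along the upper edge of the cloud at SDs from 0.77 to 0.86, and Junb and Ier2 lie near its lower edge.

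The promoters of the variable members and of Junb are shown because the sites in them are those through which calcium, MAP kinase and cAMP signals are known to act. Each is the 300 bases from 250 before to 50 after a start site of the gene (RefSeq, build GRCr8), of which 7 of the 10 genes had an entry. Capitals mark CArG boxes and TGACG, the core of a cAMP response element, also where it is read on the other strand as CGTCA or lies within the full palindrome TGACGTCA. The windows are chr18:26736828-26737127 on the plus strand for Egr1, chr20:21054392-21054691 on the minus strand for Egr2, chr7:134259888-134260187 on the plus strand for Nr4a1, chr10:17184603-17184902 on the plus strand for Dusp1 and chr19:40080876-40081175 on the plus strand for Junb.
Egr1: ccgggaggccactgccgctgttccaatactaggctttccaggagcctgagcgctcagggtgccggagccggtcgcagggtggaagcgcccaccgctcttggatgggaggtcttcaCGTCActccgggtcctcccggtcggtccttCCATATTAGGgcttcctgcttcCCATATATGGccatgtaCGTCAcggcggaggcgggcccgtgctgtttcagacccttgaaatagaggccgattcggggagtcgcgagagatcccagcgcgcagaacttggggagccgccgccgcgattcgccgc
Egr2: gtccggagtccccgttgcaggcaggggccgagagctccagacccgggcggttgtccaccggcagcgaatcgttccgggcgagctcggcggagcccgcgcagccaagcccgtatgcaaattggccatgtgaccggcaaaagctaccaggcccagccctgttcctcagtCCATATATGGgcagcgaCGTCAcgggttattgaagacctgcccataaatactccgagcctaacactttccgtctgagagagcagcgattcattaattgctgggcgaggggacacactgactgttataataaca
Nr4a1: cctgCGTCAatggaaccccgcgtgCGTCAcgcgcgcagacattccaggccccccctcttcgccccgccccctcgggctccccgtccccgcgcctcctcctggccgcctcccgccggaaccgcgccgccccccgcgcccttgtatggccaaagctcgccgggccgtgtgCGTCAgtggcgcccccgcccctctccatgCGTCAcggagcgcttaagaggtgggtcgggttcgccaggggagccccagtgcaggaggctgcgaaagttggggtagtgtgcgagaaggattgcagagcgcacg
Dusp1: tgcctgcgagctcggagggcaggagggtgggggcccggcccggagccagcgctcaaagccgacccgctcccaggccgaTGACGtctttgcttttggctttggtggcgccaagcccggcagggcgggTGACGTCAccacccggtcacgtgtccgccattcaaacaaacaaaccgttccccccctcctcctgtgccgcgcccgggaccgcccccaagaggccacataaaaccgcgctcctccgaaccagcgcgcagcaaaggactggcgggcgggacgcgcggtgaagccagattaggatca
Junb: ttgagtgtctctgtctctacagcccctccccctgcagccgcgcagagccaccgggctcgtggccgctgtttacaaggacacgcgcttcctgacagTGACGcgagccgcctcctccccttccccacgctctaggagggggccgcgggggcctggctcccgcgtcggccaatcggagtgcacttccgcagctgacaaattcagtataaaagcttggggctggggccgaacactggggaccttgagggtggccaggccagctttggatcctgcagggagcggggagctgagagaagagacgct

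Egr1 had 2 CArG boxes, which began 105 and 83 bases before the start site, and Egr2 had 1, also 83 bases before it. CArG boxes were found in 2 of the 7 promoters and in 1.64% of all promoters in the table. The palindrome TGACGTCA lay in 3 of the 7, those of Ier2, Dusp1 and Btg2, against 1.91% of all, and TGACG on either strand lay in each of the 7, against 22.0% of all. Nr4a1 had 4 of these cores without a full palindrome, Egr1 had 2, and Egr2 and Junb had 1 each. Ier2 and Dusp1 both carried the palindrome, and Junb and Nr4a1 both carried cores alone, with spreads that differed within each pair. The CArG boxes lay in Egr1 and Egr2, with SDs of 0.86 and 0.78, beside 0.77 for Nr4a1, which had none. Without recuperated array 4 the SD was 0.81 for Nr4a1, 0.72 for Egr2 and 0.59 for Egr1. Fos, also highly variable, had no entry. Any part of these sites in the spread was not tested. A match is a description of the sequence only.

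The highest correlations between members from animal to animal joined Fos, Egr1, Nr4a1 and Dusp1, and none of them passed adjustment over the pairs. For each of the 36 pairs of main probe sets the correlation over 12 arrays was computed with the mean of each group subtracted. The median r was 0.19, with 26 pairs above 0, against a median of 0.01 over all pairs of genes. An r of at least 0.5 was found in 5 pairs, which is 13.9% of them, against 8.82% of all gene pairs and 10.3% of pairs of the brighter genes, those above their array median on 6 or more arrays. Without recuperated array 4 the median was 0.11 for the members, against 0.01 over all gene pairs. Of the 36 pairs 20 were then above 0. An r of at least 0.5 was then reached by 6 pairs, or 16.7%, against 9.57% of all gene pairs and 10.8% of pairs of the brighter genes. Within recuperated arrays alone the median of the members was 0.38, and within control arrays alone it was 0.01. Medians over all gene pairs within a single group were not computed. The number of pairs that passed Benjamini-Hochberg adjustment over the 36 was 0, and 3 had an unadjusted permutation p under 0.05 for r.

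The 5 pairs at or above 0.5 all joined Fos, Egr1, Nr4a1 and Dusp1, which were singled out after their values were seen. Fos and Nr4a1 had the closest relation, with r = 0.73 and rho = 0.77 (permutation p = 0.0128 and 0.00821, and 0.461 and 0.159 after Benjamini-Hochberg adjustment over 36 pairs). It was 0.69 within recuperated arrays and 0.78 within control arrays, 0.63 without the 2 arrays farthest from the median of Fos, and 0.65 to 0.79 with any 1 array left out. Recuperated animal 3 and control animal 1 were low for both genes and control animal 5 was highest for both.

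Fos and Egr1 gave r = 0.57 and rho = 0.76 (permutation p = 0.0299 and 0.00881, adjusted 0.524 and 0.159), with 0.71 within recuperated and 0.59 within control arrays, and 0.56 without the 2 farthest arrays. Egr1 and Nr4a1 gave r = 0.59 and rho = 0.62 (permutation p = 0.0582 and 0.0462, adjusted 0.524 and 0.554), with 0.45 within recuperated and 0.91 within control arrays, and 0.88 without recuperated array 4. Fos and Dusp1 gave r = 0.61 and rho = 0.54 (permutation p = 0.0462 and 0.103, adjusted 0.524 and 0.672), and r fell to 0.41 without the 2 farthest arrays. Nr4a1 and Dusp1 gave r = 0.51 and rho = 0.51 (permutation p = 0.108 and 0.112, adjusted 0.778 and 0.672). Egr1 and Dusp1 gave 0.35, below the 0.44 of Egr1 with Arc and the 0.39 of Egr1 with Jun. Without recuperated array 4 these were 0.57 for Egr1 with Dusp1, -0.15 with Arc and 0.49 with Jun. Each of these pairs was positive in both groups.

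**Figure D4:**
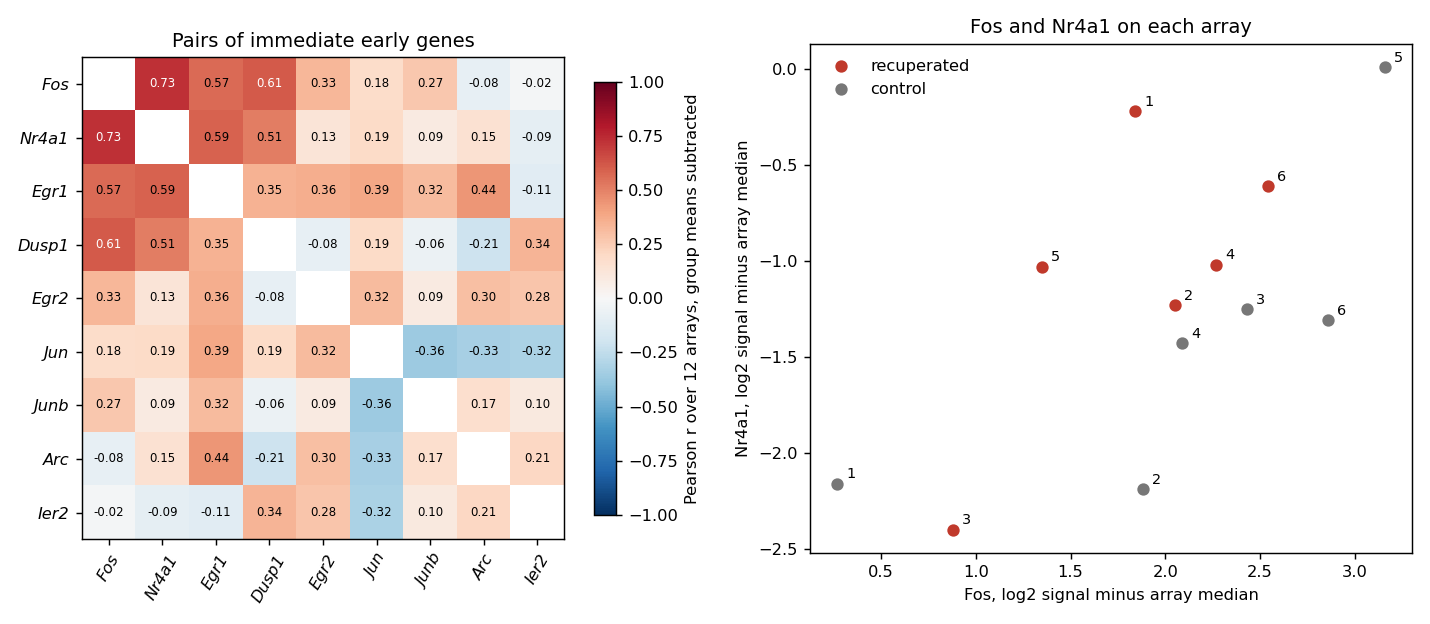
Left, Pearson r over 12 arrays with group means subtracted for each pair of the 9 measured genes (colour scale from -1 to 1, value in each cell); right, Nr4a1 (y axis) against Fos (x axis), both as log2 signal minus array median, on the 6 recuperated (red) and 6 control (grey) arrays, numbered by animal. The upper left block of Fos, Nr4a1, Egr1 and Dusp1 holds every r of 0.5 or more, and in the right panel recuperated animal 3 and control animal 1 sit at the lower left and control animal 5 at the upper right.

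Members differed in how closely they followed the rest. The correlations with the rest were computed only with recuperated array 4 included. That array was highest for Egr1, Egr2 and Arc. With the mean of the remaining members, each scaled to the same spread, Egr1 correlated at 0.74, Fos at 0.65, Nr4a1 at 0.57, Egr2 at 0.41 and Dusp1 at 0.39, whereas Arc was at 0.15, Junb at 0.13, Ier2 at 0.09 and Jun at 0.06 (Pearson r over 12 arrays, as a description). Egr2 followed Egr1 at 0.81 within recuperated arrays and at -0.55 within control arrays, so that the relation had opposite signs in the groups, and it was 0.36 over both and 0.00 over both without array 4. Jun and Junb, both AP-1 partners of Fos, gave -0.36 with each other.

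The mean scaled level over the 9 members was also taken for each array, although several members followed the rest only weakly. On recuperated arrays 1 to 6 it was 0.28, -0.26, -1.05, 0.89, -0.27 and 0.42, and on control arrays 1 to 6 it was -0.69, -0.15, 0.34, 0.12, 0.26 and 0.12, in SD units around the mean of each group. Because each group is centred on its own mean, these values do not rank animals of one group against those of the other. Recuperated animals covered the wider range, with number 3 lowest for Jun, Egr1, Egr2 and Nr4a1 and number 4 highest for Egr1, Egr2 and Arc. The top of that range, 0.89, was array 4, the one with VMN markers, and the next highest recuperated value was 0.42.

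Recuperated array 4 gave the highest mean and also stood apart in its tissue markers. Correlations of the markers with the members are therefore given with and without it. The mean of ARC markers correlated with the mean of the members at -0.55, VMN markers at 0.49, markers of tanycytes, the cells lining the ventricle beside the ARC, at -0.61, and neuron markers at 0.55 (Pearson r over 12 arrays). Microglia markers gave -0.53 and oligodendrocyte markers 0.46. Without array 4 these were 0.08 for ARC, -0.02 for VMN, -0.28 for tanycytes, 0.16 for neurons, -0.13 for microglia and 0.05 for oligodendrocytes. Of the 10 microglia genes, 8 were lowest on that array. Blood markers gave -0.52 with and -0.52 without that array, with list means of -1.22 to -0.95 on recuperated and -1.54 to -0.81 on control arrays, and 1 of the 5 measured blood genes had a typical signal above the array median. Astrocyte markers gave 0.28, and 0.58 without array 4. The excess of 3' over 5' signal, which grows as RNA is degraded or shortened by amplification, gave 0.41 for actin and 0.07 for GAPDH (0.20 and 0.24 without array 4). The part of any of these in the covariation of the members was not tested.

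Related genes were read from lists of the same pathways. Of the other AP-1 factors 8 of 8 were measured, of the other Egr and Nr4a factors 4 of 4, of other inducible transcription factors 9 of 10, of inducible synaptic and secreted genes 10 of 13, and of feedback and growth control genes 20 of 20. None of these 51 genes was higher or lower at an unadjusted P under 0.05, and the medians of the log2 differences lay between -0.04 and 0.05. Among them Socs3, a brake on cytokine and leptin signalling, had the largest lean to lower values, with a mean of -2.63 ± 0.33 on recuperated and -2.13 ± 0.57 on control arrays (SD, n = 6 each), a difference of -0.50 (SE 0.24) and an exact permutation p of 0.0844. Nr4a3 averaged 0.55 ± 0.60 on recuperated and 0.10 ± 0.77 on control arrays (SD, n = 6 each), a difference of 0.45 (SE 0.35, exact permutation p = 0.284). Myc differed by 0.56 (SE 0.33, exact permutation p = 0.216) and Nr4a2 by -0.32 (SE 0.20, exact permutation p = 0.154). For Myc, control 6 was at -2.40, with the other controls at -1.31 to -0.56.

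Between animals, Fosb was the closest follower among these genes. It encodes the paralogue of Fos and was not used in choosing the members. It lay between -2.38 and -0.34 on recuperated arrays and between -2.14 and -1.10 on control arrays, lowest on recuperated array 3 and highest on recuperated array 4. With the mean of the members its r was 0.90 and its rho 0.88, and r was 0.86 without array 4. Nfil3 gave 0.80, Plk2 0.75, Spry2 0.75, Klf10 0.67, Klf6 0.62 and Nr4a3 0.52 (0.71, 0.65, 0.66, 0.52, 0.67 and 0.62 in the same order without array 4). Ptgs2, an inducible enzyme of prostaglandin synthesis, gave 0.65, and 0.44 without array 4, where it was at -0.84, against -3.05 or less on every other array. With Fos alone the values were 0.80 for Klf6, 0.78 for Nr4a3 and 0.74 for Fosb. Of the 51 genes 8 reached an r of 0.5 with the members' mean, or 15.7%, against 4.53% of 14208 other genes. Lists that are not of inducible genes held larger shares, with 40.0% of the 5 VMN markers and 30.0% of the 10 neuron markers. The share was 28.6% of the 7 oligodendrocyte markers and 23.5% of the 17 upstream activators. Over the 12 arrays such a share was therefore not particular to inducible genes. Without recuperated array 4 the highest r was 0.28 among VMN markers, 0.42 among neuron markers and 0.38 among oligodendrocyte markers. Upstream activators then reached 0.64 and astrocyte markers 0.53. Shares without that array were not computed. Others ran the opposite way: with the members' mean Crem gave -0.70, and the stress-inducible Ppp1r15a and Gadd45a gave -0.58 and -0.40. Without array 4 these were -0.51, -0.49 and -0.50 in the same order. With Fos alone Gadd45a gave -0.79 and Ppp1r15a -0.75. All of these are descriptions over the same 12 arrays.

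Upstream activators, such as SRF, Elk and CREB family members and the kinases that act on them, were measured for 17 of 21 listed genes, and 0 passed an unadjusted P under 0.05 in either direction. Genes induced by glucocorticoids, a sign of stress hormone, were measured for 10 of 12, again with 0 passing, and their mean signal ranged from 1.40 to 1.77 on recuperated and 1.48 to 1.80 on control arrays (exact permutation p = 0.236). Its r with the members' mean was -0.16, and 0.25 without array 4. Heat shock genes, measured for 7 of 10 with 0 passing, ranged from 2.79 to 3.04 on recuperated and 2.92 to 3.20 on control arrays (exact permutation p = 0.0693), with an r of 0.01, and 0.44 without array 4.

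Across the 9042 other genes of the brighter set, the 10 whose pattern was most like the mean of the members were Dedd2 (r = 0.86), Ppp1r12b, Sclt1 and Btbd8 (0.84 each), Sbk1 (0.82), Nfil3 (0.80), Lsg1 (0.79), and Shank1, Lratd1 and Itgav (0.78 each). Only Nfil3, a transcription factor of the circadian output, was also on a list of inducible genes. The 5 most opposed were Nkapd1 (-0.87), Keap1 and Fuom (-0.84 each), and Med16 and Rpl26l1 (-0.81 each). Without recuperated array 4 the 10 most alike stayed between 0.66 and 0.90 and the 5 most opposed between -0.80 and -0.71. These are the ends of a ranking of 9042 genes over 12 arrays.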

How the data were processed

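The members and the gene lists were chosen with earlier results of these data known. Log2 values from RMA were deposited by the authors for 31099 probe sets on 12 arrays. RMA and Affymetrix Expression Console are named in the submitters' processing notes, and the methods of the study describe RMA in GeneSpring GX, with versions of the deposited step not given in the sources used here. RMA equalises the arrays, so a change shared by most genes would be lost, and replicates were not pooled. Of these probe sets, 57 Affymetrix controls were set aside, and every array was centred on its median over the remaining 31042. The platform annotation gave 1 symbol to 20826 probe sets, several to 436 and none to 9780.

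Groups were compared with lmFit and eBayes of limma 3.58.1 (R 4.3.3), with Benjamini-Hochberg adjustment over 31042 probe sets, and single probe sets with a two-sided exact permutation test over 924 arrangements of the arrays. Correlations were taken with Python 3.11.15, numpy 2.4.6, scipy 1.17.1 and pandas 2.3.3 after subtraction of group means, with two-sided permutation tests of 100000 resamples within groups. The script was tested on simulated data.

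All members are named; of the other lists, the genes named are among the 3 with the smallest P, and those most like or most opposed to the members by rank. Fosb, Klf6, Klf10, Nfil3, Plk2, Ptgs2, Spry2, Nr4a3, Crem, Gadd45a and Ppp1r15a as followers or opponents, and the Npy, Pomc and Nr5a1 signals, were chosen after their values were seen. Alternatives were no median subtraction, quantile normalization, a filter on dim probe sets, the t-test of the methods, array weights, the animal number as a block, folds of linear values, all probe sets of a gene averaged, Spearman's rho, each group alone, and leaving out each array. Arrays give no read depth, and their number limits the precision.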

Additional observations from a re-analysis of the deposited data

Results flagged for a closer look

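Of 70 groups of 6 arrays examined for 1 array far from the rest, 4 held such an array, where chance alone gives about 3.5 (1 in 20). Recuperated array 4 accounted for 3 of them: its mean over ARC neuron markers was 0.58, with the other recuperated arrays at 2.44 to 2.70, its mean over tanycyte and ependymal markers was -0.23, with the others at 1.43 to 1.74, and its mean over VMN markers was 3.52, with the others at 0.39 to 1.43. The same array was highest for Egr1, Egr2 and Arc. The last was control array 4 for the second Jun probe set (1374404_at), at 2.88 with the other controls at 3.51 to 3.62, whereas the main Jun probe set on that array was 3.93, inside the control range.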

How the results depend on the processing

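Junb kept its direction and an unadjusted P under 0.05 under every alternative that could test it. The members' median of -0.09 lay between -0.18 and 0.03 with 1 array left out, and members with an unadjusted P under 0.05 numbered 1 to 2 (2 without control 1, adding Fos at -0.66, and 2 without control 5, adding Ier2 at -0.28) and 0 among the brighter probe sets, those above their array median on 6 or more arrays, which leave out Junb. Directions that turned were those of Arc (-0.05 with array weights), Jun (0.03 without recuperated 3; -0.18 to 0.03 over all arrays left out), and, without recuperated 4, Egr1 (-0.14; -0.14 to 0.52), Egr2 (-0.01; -0.01 to 0.46) and Arc (-0.02; -0.02 to 0.16), none of which passed the test. The median r of 0.19 was 0.37 among the brighter probe sets, 0.38 within recuperated and 0.01 within control arrays, and 0.10 to 0.28 with 1 array left out; the median SD of 0.41 was 0.37 to 0.44. Correlations of marker lists with the members, tried without recuperated 4 after seeing the data, were 0.08 for ARC neurons, 0.16 for neurons, -0.28 for tanycytes and -0.02 for the VMN; leaving out single arrays was also added for the spread and the named pairs, and recuperated 4 for the group difference of the ARC list. Over all probe sets, 766 passed 1.3-fold with P under 0.05 (371 higher, 395 lower), against 434 higher and 302 lower with no median subtraction, 447 and 313 with quantile normalization, 268 in all among brighter probe sets (fewer were tested), 506 with the methods' t-test, and 701 to 1084 with 1 array left out. At an adjusted p of 0.05 there were 0 (limma; 1071 at an unadjusted P under 0.05, and 0 by the methods' t-test), and 0 to 1 with 1 array left out, the 1 without recuperated 2. Animal numbers did not pair the samples: arrays of the same number correlated at -0.16 to 0.08, and only number 6 matched its own number best. The replicate block gave 863 calls, 0 adjusted, and left Junb at -0.33. The cause of these changes was not tested.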
